A study of Mus musculus with 15 samples.

Results

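The CatSper channel and the Slo3 potassium channel are the main ion conductances of the sperm tail, and this section follows the transcripts of 10 of their genes through mouse spermatogenesis: Catsper1, Catsper2, Catsper3 and Catsper4, which encode the pore-forming subunits of CatSper, Catsperb, Catsperd, Catsperg1 and Catsperg2, which encode its auxiliary subunits, Kcnu1, which encodes Slo3, and Lrrc52, which encodes the auxiliary subunit of Slo3. The 10 genes were taken by symbol from the 32285 genes counted, and all 10 were found. Counts of unique molecular identifiers (UMIs) came from single cells of 15 testes of DBA/2J mice, 1 testis per animal and 3 animals in each of 5 groups. JQ1, an inhibitor of the BET bromodomain proteins that include the testis-specific BRDT, was injected into the peritoneum daily for 3 weeks at 50 mg/kg. The groups were JQ1-treated mice at 10 weeks of age (T), vehicle-injected mice at the same age (VC-T), mice allowed 6 weeks without drug after the last JQ1 dose and taken at 16 weeks (R), their vehicle-injected counterparts at 16 weeks (VC-R), and untreated mice at 15 weeks (UC), so that UC differed from T and R in age as well as in injections.

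CatSper carries calcium into the sperm tail and is needed for the vigorous, asymmetric beat called hyperactivation. Its pore is a tetramer of the CATSPER1 to CATSPER4 proteins, and the auxiliary subunits form an extracellular canopy over it. Slo3 is the potassium channel that hyperpolarises the sperm membrane during capacitation, and LRRC52 shifts the voltage range in which it opens. Males lacking a pore subunit, or lacking Slo3, are infertile. Because transcription ceases when the spermatid nucleus is compacted, the transcripts for these proteins must be made before that point.

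The libraries held between 9673587 and 98724982 UMIs, and 72362 cells passed the filters. Marker genes named 4 germ cell classes, like spermatogonia, like spermatocytes, like spermatids and like spermatozoa, and 61649 germ cells were ordered along a pseudotime that was divided into 20 bins of equal cell number. Neither step used the 10 channel genes or their known partners. Bin 1 was led by spermatogonia-like cells, bins 2 to 5 by spermatocyte-like cells, bins 7 to 12 by spermatid-like cells and bins 14 to 20 by spermatozoa-like cells, while bins 6 and 13 were mixed. Levels are given as CPM, the count of a gene scaled to the total UMIs of the same cells. In these suspensions fewer cells of a type and less RNA per cell cannot be told apart by a library total, and levels were not compared between genes.

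Several libraries and cell clusters stood apart. VC-T 1 is the library that the study left out of its own tests. It had 0 spermatozoa-like cells, and its spermatids had a median pseudotime position of bin 7.38, inside the range of 7.26 to 7.51 of the T libraries and below the 10.3 and 9.28 of VC-T 2 and VC-T 3. It was left out of tests here, and values with it are given where they matter. The T libraries had 1, 1 and 4 spermatozoa-like cells, so no T level is given for that class. Of the spermatid-like cells of R, 57.6% to 72.0% lay in 3 clusters with few UMIs per cell, against 8.62% to 15.5% in UC and 57.5% in VC-T 2. Of the spermatocyte-like cells of UC 1, 31.4% lay in a cluster (cluster 25) that carried spermatid marker transcripts, against 0.491% to 15.7% in the other 14 libraries. At most 25 cell barcodes were shared by any pair of libraries, which was at most 0.548% of the smaller library.

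In the GRCm38 annotation the 10 genes lie on 9 chromosomes and all are protein-coding. Catsper1 lies at chr19:5335741-5344280, Catsper2 at chr2:121392631-121413792, Catsper3 at chr13:55784568-55808998 and Catsper4 at chr4:134211970-134227383. Catsperb lies at chr12:101404653-101626009, Catsperd at chr17:56628143-56664456, Kcnu1 at chr8:25849623-25937939 and Lrrc52 at chr1:167445669-167466780. Catsperg1 (chr7:29181321-29214035) and Catsperg2 (chr7:29697219-29727032) are paralogs on chromosome 7 that are identical in part. Of the 50-base stretches of the longest Catsperg1 transcript, 41.0% occur unchanged in that of Catsperg2, and 36.4% of those in its last 500 bases, so reads could be split between these genes or lost to both, and their separate levels are uncertain.

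RefSeq promoter sequences were at hand for 7 of the 10 genes and were missing for Catsper1, Catsperg2 and Kcnu1. The 250 bases before the start are shown for 4 genes that differ in their stage of expression. Catsper2 and Catsperb transcripts were present during meiosis, and those of Catsper3 and Catsper4 rose after it. Each sequence is given 5′ to 3′ on the strand of the gene in build GRCm38.p6, and capitals mark a half-site of the cyclic AMP response element (TGACG on either strand). Catsper2 is from chr2:121413793-121414042 (minus strand), Catsperb from chr12:101404423-101404672 (plus), Catsper3 from chr13:55784329-55784578 (plus) and Catsper4 from chr4:134227384-134227633 (minus).
Catsper2: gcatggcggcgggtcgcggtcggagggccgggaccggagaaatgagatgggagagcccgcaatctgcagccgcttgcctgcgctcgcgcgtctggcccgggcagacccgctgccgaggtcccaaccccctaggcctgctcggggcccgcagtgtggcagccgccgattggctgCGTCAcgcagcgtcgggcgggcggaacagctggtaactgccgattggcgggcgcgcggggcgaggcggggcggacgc
Catsperb: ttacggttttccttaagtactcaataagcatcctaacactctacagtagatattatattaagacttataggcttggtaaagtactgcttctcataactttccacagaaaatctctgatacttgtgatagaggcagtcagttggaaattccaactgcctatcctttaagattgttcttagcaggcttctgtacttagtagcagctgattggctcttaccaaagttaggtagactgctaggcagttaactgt
Catsper3: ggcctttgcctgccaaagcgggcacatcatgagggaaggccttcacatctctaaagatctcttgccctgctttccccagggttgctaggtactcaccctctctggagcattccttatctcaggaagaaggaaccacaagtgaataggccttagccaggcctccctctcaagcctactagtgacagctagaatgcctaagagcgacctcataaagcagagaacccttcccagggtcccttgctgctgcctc
Catsper4: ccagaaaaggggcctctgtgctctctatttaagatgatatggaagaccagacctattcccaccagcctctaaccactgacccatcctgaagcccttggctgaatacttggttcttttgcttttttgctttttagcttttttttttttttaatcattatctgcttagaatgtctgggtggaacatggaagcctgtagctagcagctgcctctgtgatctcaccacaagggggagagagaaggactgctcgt
The Catsper2 promoter was 74.8% G and C with 35 CpG dinucleotides, far from Catsper4 (45.2% and 1 CpG), Catsperb (38.0% and 1 CpG) and Catsper3 (54.0% and 2 CpGs). The median of 32851 promoters was 52.4% with 6 CpGs. Of all promoters of this length, 17.8% held TGACG, 10.4% an RFX half-site (GTTGCC) and 14.5% a MYB core (AACGG), each on either strand. The TGACG match of Catsper2 was the only match of the 3 motifs in the 4 windows shown, and no match says only that these letters are not in this window. Of the windows not shown, that before an upstream start of Catsperd held 3 matches to TGACG and 1 to AACGG, and that before its other start held none.

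The channel genes fell into 2 patterns along the germ line of untreated testes. Catsper1, Catsper3, Catsper4, Kcnu1 and Lrrc52 were low through meiosis and appeared with the first round spermatids. Catsper2 and the 4 auxiliary CatSper genes were already present in spermatocytes, and the auxiliary genes fell when the spermatids appeared. Transcripts of the pore subunit gene Catsper2 thus preceded those of its 3 partners.

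Catsper3 had 25.5, 2.44 and 3.69 CPM in the spermatocyte-like cells of UC 1, UC 2 and UC 3. In spermatid-like cells it had 149.8, 161 and 154 CPM. The classes did not overlap, and the high spermatocyte value of UC 1 fell to 3.00 CPM without cluster 25. Along pseudotime the UC mean of Catsper3 was 2.89 ± 1.42 CPM in bin 5, 24.8 ± 9.03 CPM in bin 6 and 109 ± 16.7 CPM in bin 7, and it was highest in bin 10 at 220.3 ± 40.6 CPM (SD, n = 3). By bin 14 it was back at 7.97 ± 0.548 CPM.

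Catsper1, the subunit for which the channel is named, had 10.2, 0.697 and 2.39 CPM in UC spermatocytes and 55.3, 60.9 and 57.9 CPM in UC spermatids. Its bin means went from 1.24 CPM in bin 5 to 50.04 ± 5.22 CPM in bin 7 and 86.8 ± 15.4 CPM in bin 10. Catsper4 had 22.6, 3.48 and 5.86 CPM in spermatocytes and 134, 147 and 140.1 CPM in spermatids. Again UC 1 was the highest spermatocyte library for both genes, and again every spermatid library lay above every spermatocyte library.

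The Slo3 pair followed the same course. Kcnu1 had 6.94, 4.18 and 5.21 CPM in UC spermatocytes and 55.3, 54.1 and 63.8 CPM in UC spermatids. Lrrc52 had 9.42, 2.09 and 3.47 CPM and 78.9, 81.6 and 65.6 CPM in the same classes. Lrrc52 rose later than the other 4 genes, with 30.6% of its highest UC bin mean in bin 7, where Kcnu1 had 61.2%, Catsper4 60.01%, Catsper1 57.7% and Catsper3 49.7%. The mean log2 ratio of spermatid over spermatocyte CPM (1 CPM added to each) was 4.37 ± 1.63 for Catsper3, 3.98 ± 1.31 for Catsper4, 3.88 ± 1.44 for Catsper1, 3.86 ± 0.90 for Lrrc52 and 3.21 ± 0.33 for Kcnu1 (SD, n = 3). Without cluster 25 the ratios were 5.27 ± 0.20 for Catsper3, 4.65 ± 0.50 for Catsper4, 4.61 ± 0.78 for Catsper1, 4.58 ± 0.58 for Lrrc52 and 3.38 ± 0.08 for Kcnu1. The SDs of all 5 ratios were smaller without it, and the mean of Kcnu1 was the lowest of the 5 in both settings.

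**Figure D1:**
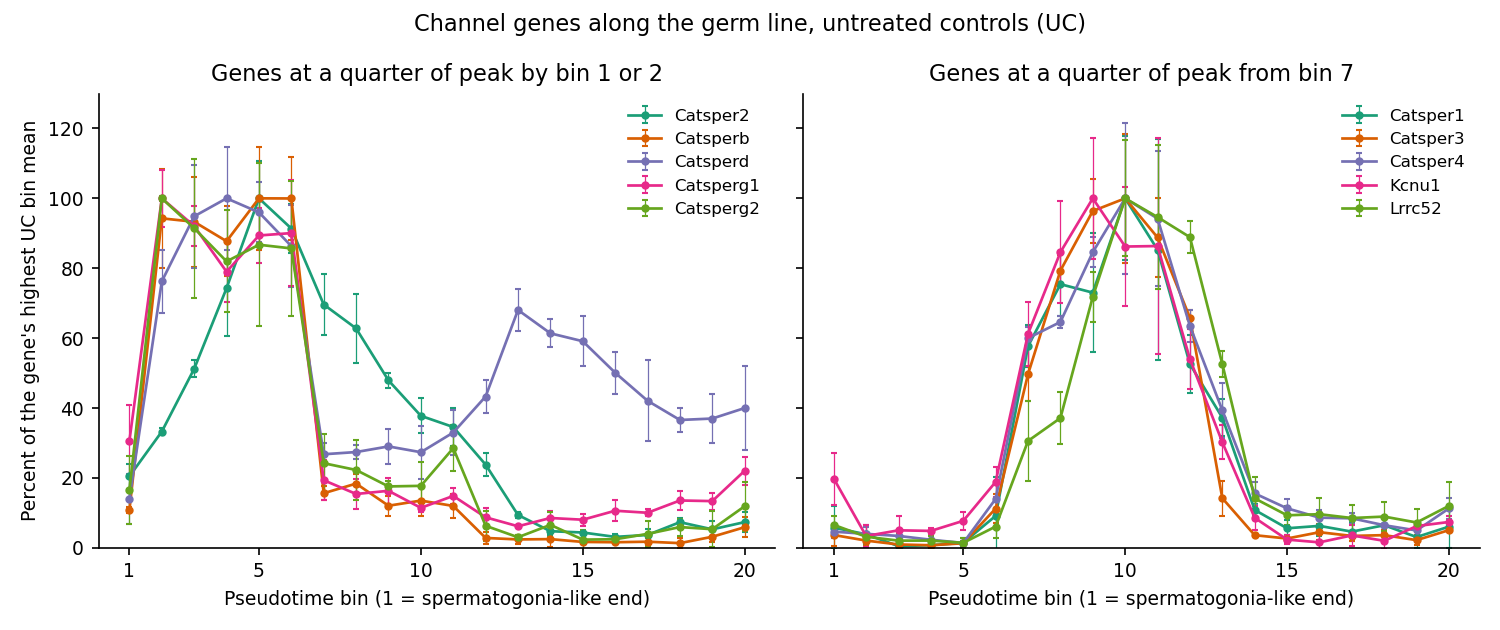
Level of each channel gene in the 20 pseudotime bins of the UC libraries, as a percent of that gene's highest bin mean (points, mean of 3 libraries; bars, SD). The 5 genes on the left were on in bins 2 to 6 and the 5 on the right rose between bins 6 and 8, and Catsperd rises again to a second maximum in bin 13.

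Among the auxiliary genes, Catsperb had 225, 292 and 229 CPM in UC spermatocytes and 29.9, 26.9 and 34.02 CPM in UC spermatids. Its UC bin mean was 283 ± 33.6 CPM in bin 6 and 44.3 ± 5.78 CPM in bin 7, the interval in which Catsper3 rose. Catsperg1 fell from 155 ± 25.96 CPM to 33.4 ± 9.73 CPM between the same bins and Catsperg2 from 75.4 ± 16.9 CPM to 21.3 ± 7.37 CPM. All 3 genes were thus high in every spermatocyte bin from 2 onward and fell at the boundary where the Slo3 genes and the other pore genes appeared.

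Catsper2 kept a middle course. It had 224, 227 and 252 CPM in UC spermatocytes and 149.8, 130.2 and 149 CPM in UC spermatids. Its bin mean climbed through meiosis, from 117 ± 3.47 CPM in bin 2 to 351 ± 37.8 CPM in bin 5, and then declined step by step to 245 ± 30.2 CPM in bin 7, 133 ± 17.7 CPM in bin 10 and 33.00 ± 3.08 CPM in bin 13. The mean log2 ratio of spermatids over spermatocytes was -0.71 ± 0.12 for Catsper2, against -2.99 ± 0.36 for Catsperb, -2.62 ± 0.27 for Catsperg1 and -2.44 ± 0.55 for Catsperg2 (SD, n = 3). In the annotation Catsper2 overlaps the gene model Gm14001 on its own strand, and Gm14000 and Pdia3 on the opposite strand. Some of its reads are therefore uncertain, for the overlap with Gm14001 even where strand was used.

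Catsperd, an auxiliary subunit needed for a stable channel, rose a second time in late spermatids. It had 131, 164 and 176 CPM in UC spermatocytes, 65.2, 74.05 and 62.6 CPM in spermatids and 94.99, 84.3 and 89.6 CPM in spermatozoa-like cells. In bins, the UC mean was 177 ± 26.02 CPM in bin 4, 48.5 ± 3.51 CPM in bin 8 and 120.5 ± 10.5 CPM in bin 13. The other 9 genes had UC means between 4.19 and 23.2 CPM in spermatozoa-like cells, each below its own spermatid mean. At the very end of the order Catsperg1 also went up, from 10.6 ± 0.333 CPM in bin 13 to 38.02 ± 7.02 CPM in bin 20. This was not particular to Catsperg1. Between the same bins Catsperg2 went from 2.66 ± 0.505 to 10.5 ± 6.12 CPM and Catsperb from 6.81 ± 3.67 to 16.7 ± 8.31 CPM. The spermatozoa-like levels of Catsperd were 80.6, 84.5 and 71.9 CPM in R and 89.2, 66.3 and 89.2 CPM in VC-R, where the spermatids had 68.3, 70.3 and 69.5 CPM and 74.1, 51.1 and 70.9 CPM.

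The patterns were read from the 20 UC bins, so that likeness over the same bins is a description of them. Pearson's r of log2(CPM + 1) ranged from 0.81 to 0.98 over the 10 pairs among the spermatid genes. It ranged from 0.13 to 0.98 over the 10 pairs among the meiotic genes and from -0.68 to 0.52 over the 25 mixed pairs. Catsperd was least like its own set, with r between 0.13 (Catsper2) and 0.49 (Catsperg1), and the highest mixed pair was Catsper2 with Kcnu1. Among 11315 genes that reached 20 CPM in a bin, those most like Catsper3 were Spaca1 (r = 0.99), an acrosomal membrane gene, Nipsnap3a, Lyzl6, 4930474N05Rik and Ccdc81. Those most like Catsper1 were Gm26844 (r = 0.99), Sox5, Gm48051, Phex and Spaca3, and those most like Kcnu1 were Dnah9 (r = 0.97), an axonemal dynein gene, Scamp2, Lmbrd1, Klf4 and Gm36445. Spaca1 and Lyzl6 were among the markers that named the spermatid class.

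The other known genes of the CatSper complex split in the same way. Efcab9, which encodes a calcium-sensing subunit, had UC bin means of 5.90 CPM in bin 5 and 333 ± 30.1 CPM in bin 7. Its binding partner Catsperz had 1687 ± 134 CPM and 1805 ± 119 CPM in those bins, so it was already high in meiosis. Tmem262 and Tmem249 appeared with Efcab9, at 179.6 ± 22.5 CPM and 109 ± 25.03 CPM in bin 7. Catspere1 and Catspere2 fell with Catsperb, from 175 to 6.21 CPM and from 159 to 14.7 CPM between bins 6 and 7. Catspere1 is annotated as a pseudogene and shares 25.1% of its 50-base stretches with Catspere2. C2cd6 and Slco6c1 were on in both stages, with 349 and 324 CPM in bin 5 and 313 and 189 CPM in bin 9.

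The low spermatocyte values of the spermatid genes have to be read against cells that should lack them. In UC, Catsper3 had 95.99, 37.3 and 12.04 CPM in Sertoli-like cells, on 5 to 10 UMIs per library, and 0, 16.3 and 11.8 CPM in spermatogonia-like cells. A UMI of Catsper3 was found in 6.45% of 1474 UC spermatocytes and in 7.63% of 249 UC Sertoli-like cells, with means of 7808 and 2948 UMIs per cell, against 46.5% of 2220 spermatids at 5774 UMIs per cell. UC 1 held 103 of the Catsper3 UMIs of spermatocytes, of which 9 remained without cluster 25, and UC 2 and UC 3 held 7 and 17. The part of free RNA in these levels was not tested. In bin 1 Kcnu1 had 15.5 ± 5.80 CPM in UC (SD, n = 3) and 20.7, 23.97 and 16.5 CPM in T, values that rest on 4 to 16 UMIs per library. Catsper4 had bin 1 means of 8.99 CPM in UC and 22.1 CPM in T, so such a start was not particular to Kcnu1.

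Onset was taken as the first bin in which a library reached 25% of the gene's highest UC bin mean, among bins with at least 20 cells. For Catsper1, Catsper3 and Catsper4 it was bin 7 in all 3 libraries of T, of R and of UC. In VC-T and VC-R it was also bin 7, save for Catsper1 in 1 VC-T library at bin 8. Lrrc52 had its onset between bins 7 and 9 in every library, with group medians of 8 in T and R and 7 in UC, VC-T and VC-R. For Kcnu1 the median was bin 7 in UC, R and VC-T and bin 6 in VC-R, and bin 1 in T, where T 1 and T 2 passed the mark in bin 1 on 16 and 11 UMIs. UC 1, VC-T 1 and VC-R 1 passed it there as well, on 4, 8 and 9 UMIs. The medians of the auxiliary genes and Catsper2 were bin 1 or 2 in each group.

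**Figure D2:**
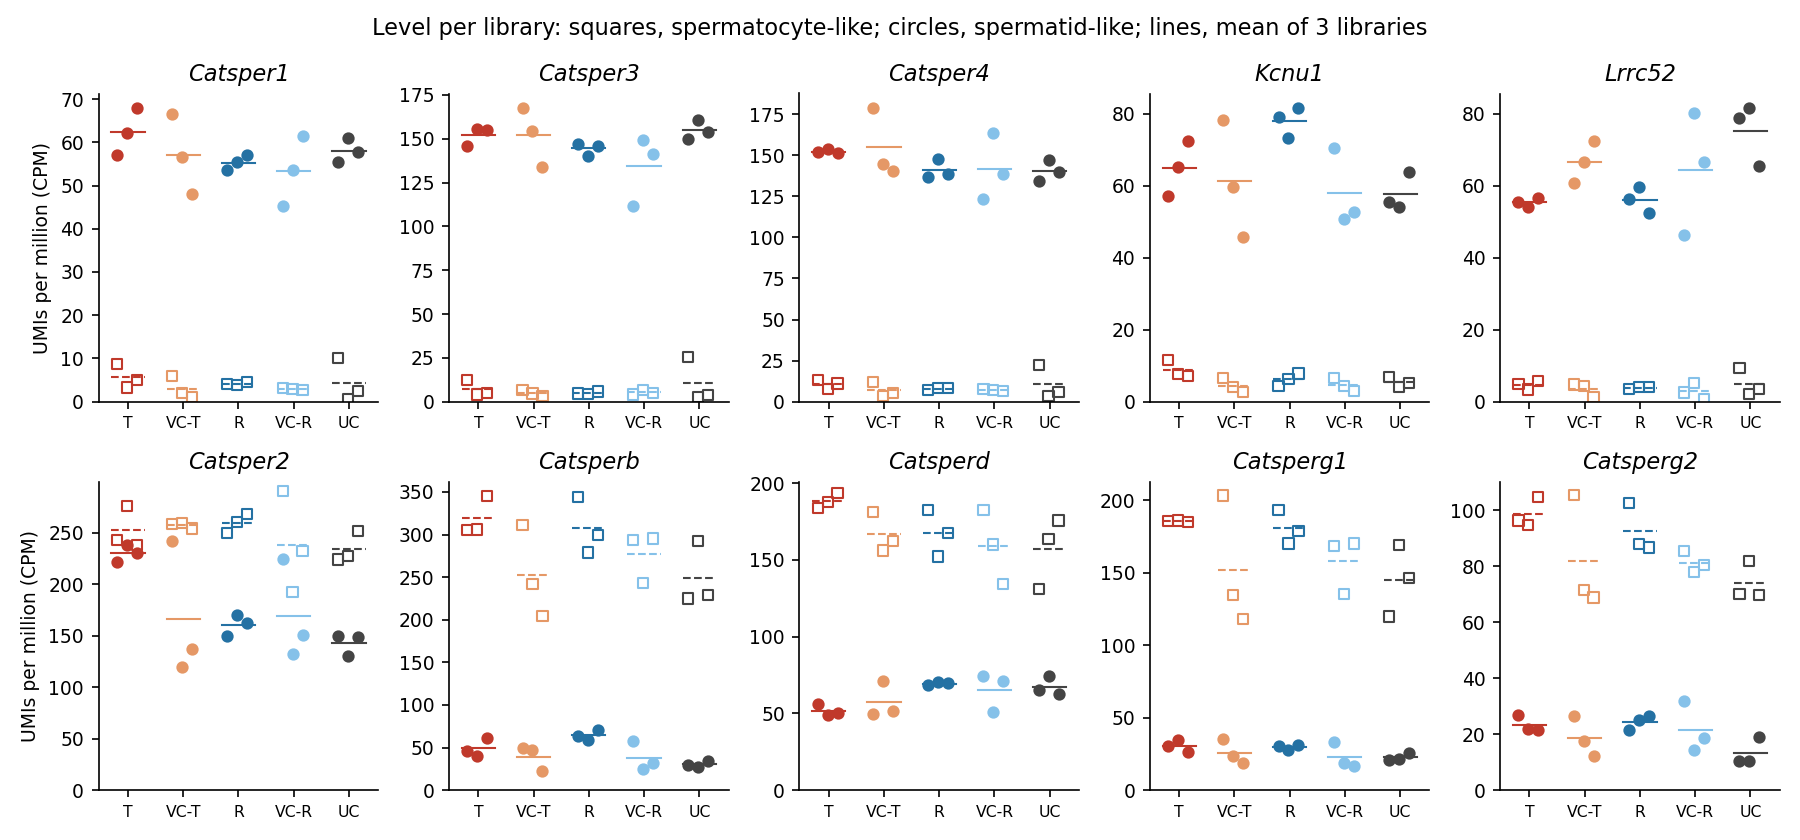
CPM of each channel gene per library in spermatocyte-like (open squares) and spermatid-like cells (filled circles) of the 5 groups, with group means as lines (n = 3, VC-T 1 included). In the upper row the spermatid values of all groups lie above all spermatocyte values, and for the 4 auxiliary genes in the lower row all spermatocyte values lie above all spermatid values.

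Transcripts of the channel genes were present in the spermatids that remained under JQ1. In the 3 T libraries Catsper3 had 146, 156 and 155 CPM in spermatid-like cells, against 149.8, 161 and 154 CPM in UC and 168, 154 and 134 CPM in VC-T. Catsper1 had 57.1, 62.1 and 67.9 CPM in T, 55.3, 60.9 and 57.9 CPM in UC and 66.5, 56.5 and 47.9 CPM in VC-T, so the 3 groups overlapped. Catsper4 had 152, 154 and 151 CPM in T, all above the 134, 147 and 140.1 CPM of UC. None of the 10 genes passed the test in T against UC, which asked for an adjusted p under 0.05 and a change of more than 1 on the log2 scale (edgeR quasi-likelihood with Benjamini-Hochberg adjustment over all genes). Of the 13306 genes tested, 17.9% passed. DESeq2 called 0 of the 10 as well, where it called 16.9% of all genes. At an unadjusted p under 0.05 there were 6 of the 10, and 7665 of the 13306 genes tested.

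Smaller shifts were present, and their direction depended on the gene and on the scaling. The fitted values use TMM factors, and without them the fold changes in spermatids of T against UC moved up by 0.27 at the median. With an adjusted p under 0.05 alone, 3 genes were higher and 3 were lower in T than in UC. This was 6 of 10, where the share over all genes was 51.8% (23.8% higher and 27.9% lower).

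Lrrc52 was the lowest relative to UC. Its spermatid levels were 55.5, 54.2 and 56.7 CPM in T and 78.9, 81.6 and 65.6 CPM in UC, with no overlap (log2 fold change -0.71, SE 0.11, adjusted p = 9.73e-05 in edgeR's quasi-likelihood test). Against VC-T 2 and VC-T 3, at 66.6 and 72.5 CPM, the log2 fold change was -0.63 (SE 0.12, adjusted p = 0.00158), and with VC-T 1 included it was -0.51 (adjusted p = 0.134). Among the UC and VC-T libraries, VC-T 1 lay closest to T at 60.8 CPM. VC-R 1, of the later vehicle group, had 46.2 CPM, below every T library.

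Catsperd had 56.2, 48.9 and 50.3 CPM in T spermatids and 65.2, 74.05 and 62.6 CPM in UC, again without overlap. In edgeR the log2 fold change was -0.64 (SE 0.11, adjusted p = 0.000258), and against VC-T 2 and VC-T 3, at 71.3 and 51.8 CPM, it was -0.55 (SE 0.14, adjusted p = 0.00909), although VC-T 3 overlapped the T libraries in CPM. With VC-T 1 included the adjusted p was 0.256. Catsper3 was the other gene on this side, with a fitted log2 fold change of -0.30 (SE 0.08, adjusted p = 0.00563) that came to -0.03 (adjusted p = 0.771) when only library totals were used.

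Catsper2 was the clearest gene on the other side. It had 222, 238 and 231 CPM in T spermatids, above the 149.8, 130.2 and 149 CPM of UC. In edgeR the fitted value was 0.42 on the log2 scale (SE 0.08, adjusted p = 0.000306). VC-T 2 and VC-T 3 had 119.9 and 137 CPM, below all T libraries (0.54, SE 0.11, adjusted p = 0.00299), but VC-T 1 had 242 CPM, above them, and with it the adjusted p was 0.368. Catsperb and Catsperg2 were higher than in UC by 0.39 (adjusted p = 0.0344) and 0.52 (adjusted p = 0.0416) on the log2 scale. For Catsper1, Catsper4, Kcnu1 and Catsperg1 the log2 fold changes of T against UC were -0.18, -0.15, -0.13 and 0.17, with 95% intervals of -0.40 to 0.04, -0.32 to 0.01, -0.36 to 0.10 and -0.12 to 0.47, and without TMM factors the signs of the first 3 turned.

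The spermatids of T lay earlier in pseudotime, with a median position of bin 7.26 to 7.51 against 9.11 to 9.68 in UC. When equal numbers of spermatids were drawn from every library in each bin, the 10 log2 fold changes of T against UC lay between -0.20 and 0.31, and 0 of 10 had an adjusted p under 0.05 in edgeR, the lowest being 0.202. Lrrc52 was then -0.07 (95% interval -0.32 to 0.18), Catsperd -0.16 (-0.46 to 0.14) and Catsper2 0.14 (-0.04 to 0.31). With the same drawing 13% of 9803 genes had an adjusted p under 0.05, on fewer cells. In bins 6 to 8 alone the 10 values lay between -0.31 and 0.13, with 0.0514 as the lowest adjusted p, where 9.05% of 9747 genes had one under 0.05. The part of stage in the shifts was not tested otherwise. Within single bins the groups overlapped for some genes and not for others. In bin 7, Catsper3 had 106, 119 and 114 CPM in T and 102, 97.9 and 129 CPM in UC. Every T library lay below every UC library for Catsper3 in bin 8 (128 to 154 against 164 to 184 CPM) and bin 9 (178 to 188 against 194 to 234 CPM). Every T library lay above UC for Catsper2 in bin 9 (184 to 207 against 160 to 175 CPM) and bin 10 (155 to 181 against 115 to 150 CPM). So did Kcnu1 in bin 7 (58.8 to 83.1 against 40.5 to 54.9 CPM). In bin 10, Catsper4 had 245, 258 and 258 CPM in T and 148, 230.1 and 204 CPM in UC, every T library above every UC library, and Lrrc52 had 91.2, 116 and 120.2 CPM and 105, 122 and 86.9 CPM.

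**Figure D3:**
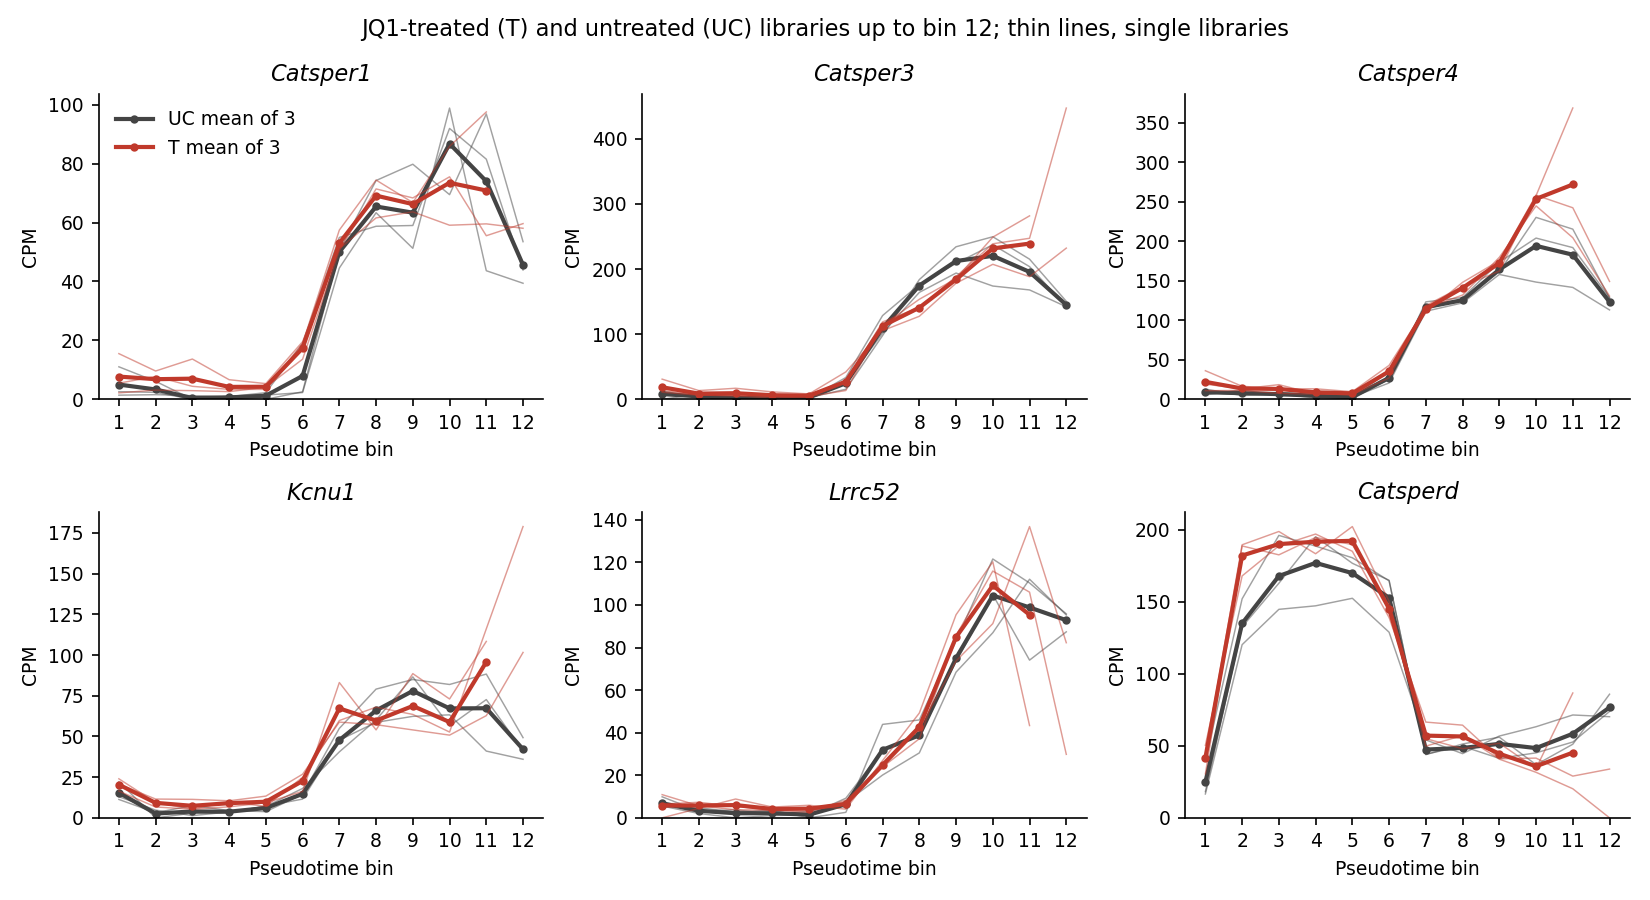
CPM of 6 channel genes over pseudotime bins 1 to 12 in single T (red) and UC (grey) libraries with at least 20 cells in the bin (thin lines) and as means where all 3 libraries had them (thick lines). The T and UC means of Catsper1, Catsper3, Catsper4, Kcnu1 and Lrrc52 rise from bin 6 to bin 7, and those of Catsperd fall. In bins 11 and 12 the T lines rest on 22 to 131 cells per library, and T 3 had too few cells in bin 12.

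Against VC-T, 0 of the 10 genes passed in spermatids, where 20.4% of 14568 genes did (edgeR; DESeq2 0, where 17.9% did). At an unadjusted p under 0.05 there were 5 of 10, and 7423 of the 14568 genes. Lrrc52 and Catsperd were lower and Catsper2 higher at an adjusted p under 0.05 alone, 3 of 10 where 43.2% of all genes passed that mark (17.1% higher and 26% lower). Without the 3 clusters of few UMIs, of which VC-T 2 held many, 7 of 10 passed that mark, 3 higher and 4 lower, where 52% of 14217 genes did, and Lrrc52 was then -0.83 (adjusted p = 1.97e-05 in edgeR). Matched by bin, none of the 10 did, where 0.89% of 9550 genes did, with log2 fold changes between -0.12 and 0.21. With all 3 VC-T libraries, 0 of 13906 genes had an adjusted p under 0.05, so the values given above with VC-T 1 say nothing particular to the channel genes.

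**Figure D4:**
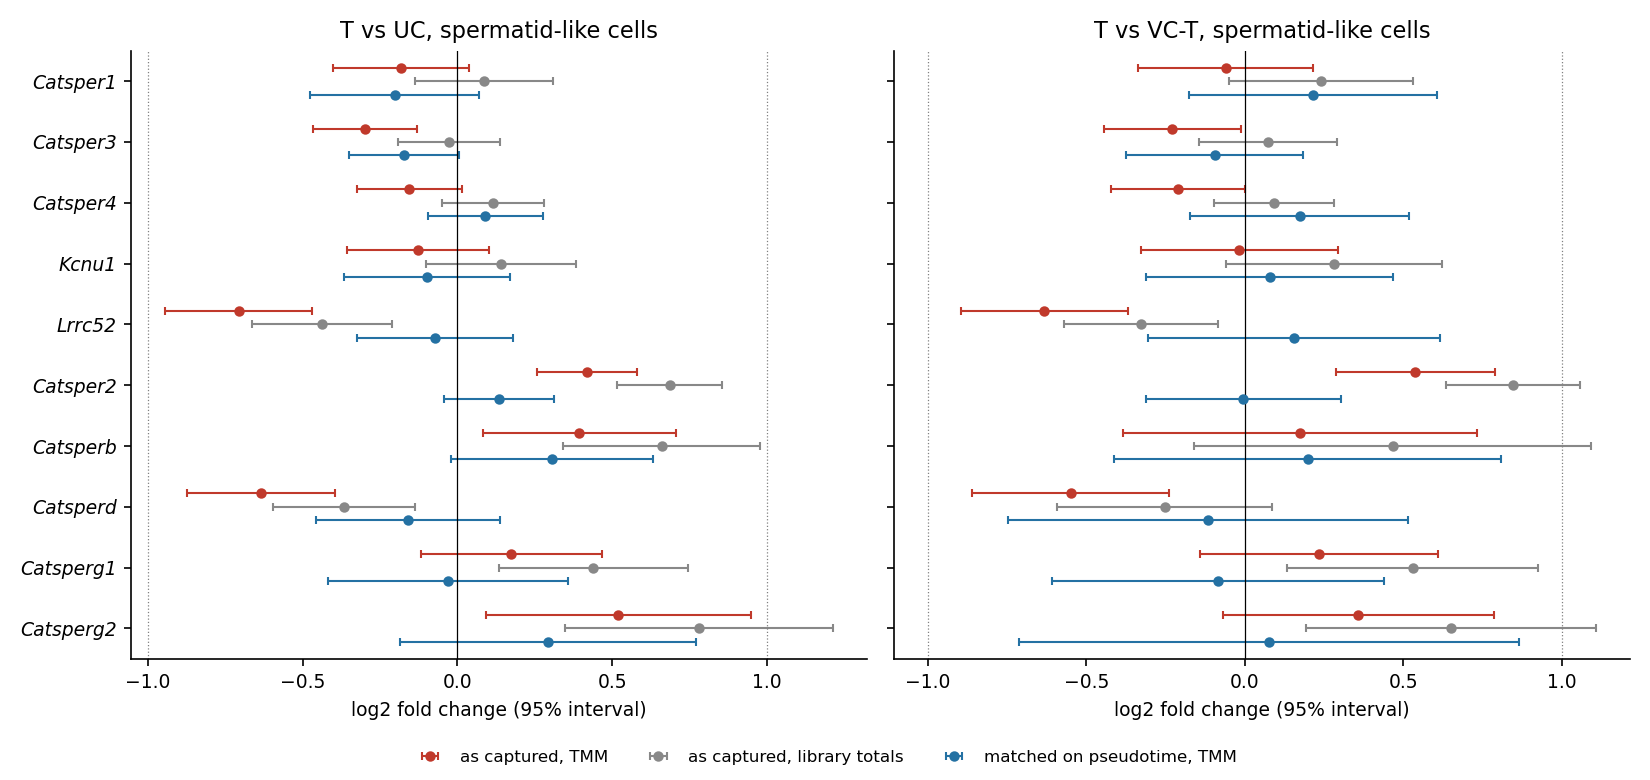
Fitted log2 fold changes with 95% intervals for the 10 channel genes in spermatid-like cells, T against UC (left) and T against VC-T 2 and VC-T 3 (right). Points are shown for all spermatids with TMM factors (red), all spermatids with library totals only (grey) and spermatids matched by pseudotime bin (blue), and dotted lines mark the change of 1 that a call required. No red or blue point lies beyond a dotted line, and the blue intervals all include 0.

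In spermatocyte-like cells the means of the auxiliary genes were higher in T than in UC. They were 319 and 249 CPM for Catsperb, 188 and 157 CPM for Catsperd, 185 and 145 CPM for Catsperg1 and 98.7 and 73.9 CPM for Catsperg2. Catsperg1 had 185, 186 and 185 CPM in T, 119.8, 169 and 147 CPM in UC and 203, 135 and 118 CPM in VC-T. None of the 10 genes passed in T against UC, where 1.94% of 12248 genes did (edgeR; DESeq2 0, where 3.12% did). At an unadjusted p under 0.05 there were 3 of 10, and 2624 of the 12248 genes. With the replicate number as a block the count of the 10 was also 0, where 5.43% of 12821 genes passed. Same-numbered libraries of this comparison deviated together, although the labels do not pair them. Without cluster 25, Catsper1 (1.68, adjusted p = 0.0381) and Catsper4 (1.03, adjusted p = 0.0255) passed in edgeR, both higher in T, where 4.09% of 12037 genes passed. Against VC-T 2 and VC-T 3, Catsper4 and Kcnu1 passed, 2 of 10 where 5.41% of genes did (1.58% higher). Catsperb, Catsperg1 and Catsperg2 were higher at an adjusted p under 0.05 alone, which made 5 of 10, where the share over all genes was 9.76% (3.35% higher).

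Both called genes were at very low levels. Kcnu1 had 11.6, 7.78 and 7.06 CPM in T spermatocytes and 4.05 and 2.76 CPM in VC-T 2 and VC-T 3 (log2 fold change 1.27, SE 0.32, adjusted p = 0.0302 in edgeR). Catsper4 had 13.2, 7.95 and 11.1 CPM in T and 3.69 and 5.07 CPM in VC-T (log2 fold change 1.195, SE 0.30, adjusted p = 0.031 in edgeR). In the spermatogonia-like cells of the same T libraries Kcnu1 had 20.99, 23.3 and 17.4 CPM and Catsper4 40.7, 10.6 and 20.3 CPM. The Sertoli-like cells had 64.2, 77.4 and 38.7 CPM of Catsper4, on only 66, 9 and 43 cells. For both genes the spermatocyte value of each T library was below its spermatogonia-like value, which rests on fewer cells. The part of free RNA in the difference was not tested. VC-T 1 had 6.52 CPM of Kcnu1 and 12.1 CPM of Catsper4, and with it 0 of 10 genes passed, where 0.259% of 13105 genes did (adjusted p = 0.263 and 0.583).

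The step from spermatocyte to spermatid was compared between T and UC in a single fit with the library as a term. None of the 10 genes passed, where 3.57% of 15616 genes did (edgeR; DESeq2 0, where 4.61% did). Catsperd had the lowest value at -0.98 (SE 0.17, adjusted p = 0.0248), just short of the change required. The mean log2 ratio of spermatids over spermatocytes for Catsperd was -1.84 ± 0.13 in T and -1.20 ± 0.25 in UC (SD, n = 3), and matched by bin the difference was -0.28 (adjusted p = 0.531), while Catsper1 alone passed, where 1.37% of 12397 genes did, at -2.89 (adjusted p = 0.00698). This fit changed with cluster 25, which held 31.4% of the UC 1 spermatocytes, and with UC 1. With UC 1 left out, Lrrc52 (-1.43, adjusted p = 0.0276) and Catsper4 (-1.44, adjusted p = 0.0148) passed in edgeR, where 10.1% of 15791 genes did. Without cluster 25, 6 of 10 genes passed, where 15.9% of 15586 genes did, and all 6 were lower in T: Catsper1 (-2.08), Lrrc52 (-1.69), Catsper3 (-1.63), Catsper4 (-1.39), Kcnu1 (-1.21) and Catsperd (-1.03). Only the spermatocyte counts differ between the fits with and without cluster 25. In spermatocytes without cluster 25, Catsper3 was at 11.7, 4.07 and 5.06 CPM in T and at 3.00, 2.59 and 3.54 CPM in UC. The Sertoli-like cells had 57.8, 25.8 and 12.9 CPM of Catsper3 in T, on 1 to 9 UMIs, and the part of free RNA was not tested.

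After 6 weeks without drug, all 10 genes were again present in the classes where UC had them, and R had spermatozoa-like cells in numbers. Catsper1 had 53.5, 55.3 and 56.99 CPM in R spermatids and 55.3, 60.9 and 57.9 CPM in UC. None of the 10 genes passed in R against UC in spermatids, where 6.58% of 14995 genes did (edgeR; DESeq2 0, where 4.65% did). Without TMM factors the values rose by 0.22 at the median. At an adjusted p under 0.05 alone, Catsperb and Catsperg2 were higher and Lrrc52, Catsper3 and Catsper1 were lower, which was 5 of 10 where the share over all genes was 39.5% (20.8% higher and 18.7% lower). Matched by bin, 8 of 10 passed that mark, 4 higher and 4 lower, where 41.8% of 12427 genes did, with log2 fold changes between -0.91 and 0.96 and none past the fold required.

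Catsperb stood out. It had 63.7, 58.9 and 70.8 CPM in R spermatids and 29.9, 26.9 and 34.02 CPM in UC, without overlap (log2 fold change 0.87, SE 0.11, adjusted p = 9.76e-07 in edgeR), and without TMM factors it passed at 1.08 (adjusted p = 3.1e-07). In bin 10 the R libraries had 149.6, 96.2 and 113 CPM and the UC libraries 25.7, 39.1 and 50.1 CPM. Without the 3 clusters of few UMIs the log2 fold change was 0.50 (adjusted p = 0.00357). VC-T 2, which was rich in them, had 46.7 CPM, while VC-T 1 and T 3, with 1.88% and 6.96% of spermatids in them, had 49.2 and 61.1 CPM. The partner gene Catspere1 had 9.18, 10.1 and 11.2 CPM in R spermatids and 3.50, 3.02 and 7.19 CPM in UC. Catspere2 had 21.8, 19.2 and 28.6 CPM in R and 14.3, 11.8 and 14.7 CPM in UC. Of the 8 other complex genes, 2 were higher and 4 lower at an adjusted p under 0.05 alone in edgeR. The share over all genes was 39.5%. Log2 fold changes of the 8 ran from -0.55 to 0.85.

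Lrrc52 had 56.2, 59.8 and 52.3 CPM in R spermatids, below the 78.9, 81.6 and 65.6 CPM of UC (log2 fold change -0.64, SE 0.11, adjusted p = 3.82e-05 in edgeR). Catsperg2 was higher by 0.61 (adjusted p = 0.0042), and Catsper3 and Catsper1 had log2 fold changes of -0.32 (adjusted p = 0.00397) and -0.29 (adjusted p = 0.0232), which were -0.10 (adjusted p = 0.325) and -0.07 (adjusted p = 0.613) without TMM factors. The remaining log2 fold changes were -0.05 for Catsper2, -0.21 for Catsper4, -0.17 for Catsperd, 0.17 for Catsperg1 and 0.21 for Kcnu1, none past an adjusted p of 0.05. Kcnu1 had 79.2, 73.3 and 81.7 CPM in R and 55.3, 54.1 and 63.8 CPM in UC, without overlap. Its log2 fold change was 0.43 (adjusted p = 0.00148 in edgeR) without TMM factors and -0.05 without the clusters of few UMIs.

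**Figure D5:**
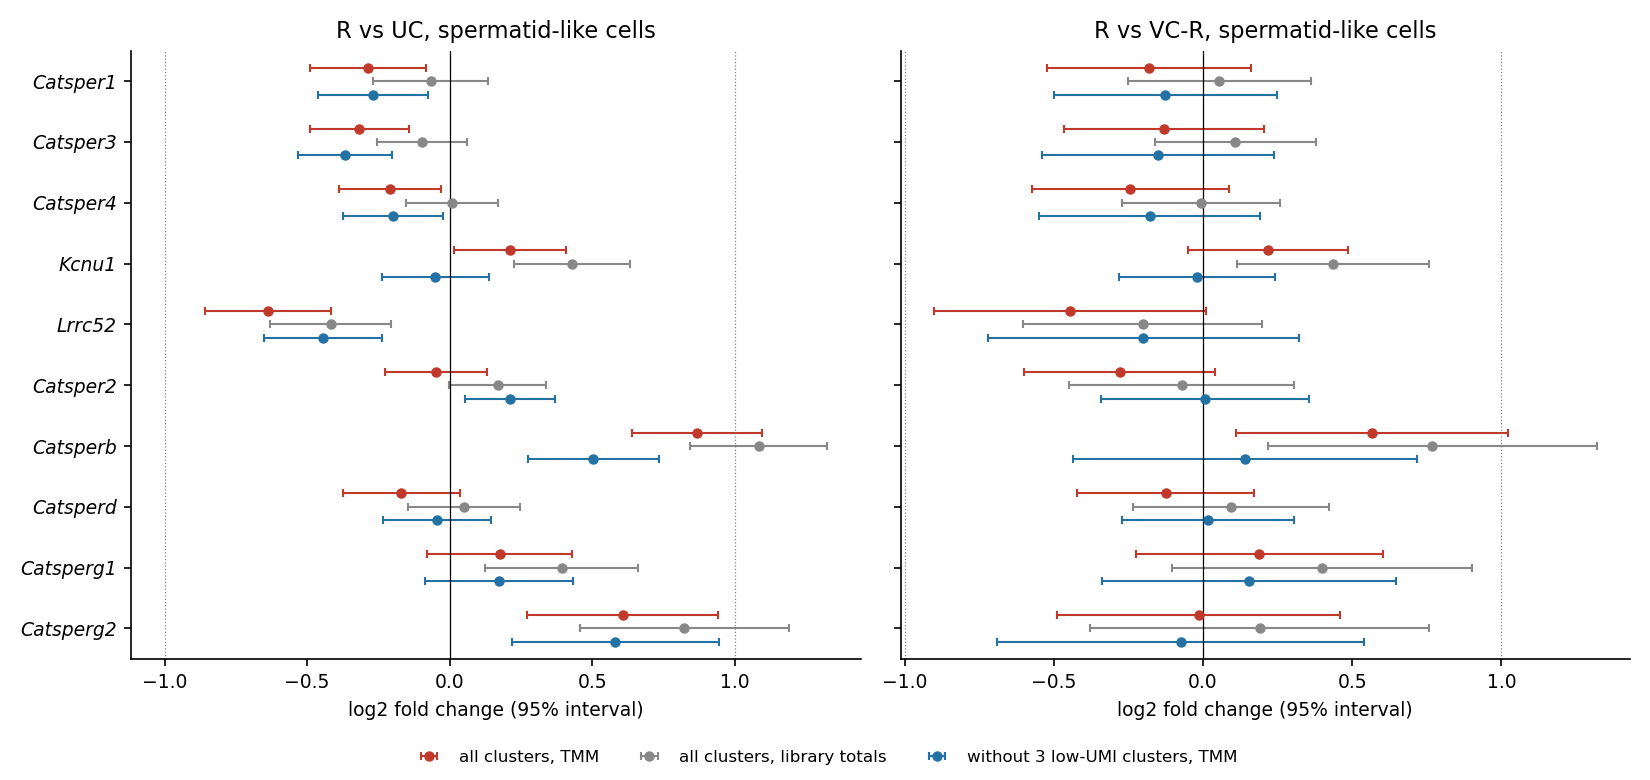
Fitted log2 fold changes with 95% intervals for the 10 channel genes in spermatid-like cells, R against UC (left) and R against VC-R (right), for all spermatids with TMM factors (red), with library totals only (grey) and without the 3 clusters of few UMIs (blue). Catsperb is the only gene with a point beyond a dotted line, in grey on the left, and on the right every red interval but that of Catsperb includes 0.

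Against the vehicle group of the same age, none of the 10 genes had an adjusted p under 0.05 in spermatids, where 4.62% of 15058 genes did and 1.9% also passed the fold threshold (edgeR). DESeq2 called 0 of the 10, where it called 2.27% of all genes. The log2 fold changes ran from -0.45 to 0.57. The share of all genes with an adjusted p under 0.05 turned on single libraries. It was 42.1% of 15898 genes without VC-R 1 and 0% of 15970 without VC-R 2. Matched by bin, 4 of 10 had an adjusted p under 0.05 in edgeR, where 25.1% of 12983 genes did, with Catsperb higher (0.73, adjusted p = 0.0138) and Lrrc52 (-0.77, 0.0139), Catsper4 (-0.49, 0.018) and Catsper3 (-0.35, 0.0427) lower, and without the clusters of few UMIs 0 of 10 did, as did 0 of 13940 genes, with log2 fold changes of the 10 between -0.20 and 0.15. The VC-R libraries were spread, with Catsper2 at 224, 133 and 151 CPM and Catsperb at 57.5, 25.2 and 31.9 CPM, and VC-R 1 was the library apart in both. Lrrc52 had 46.2, 80.3 and 66.5 CPM in them, with VC-R 1 below every R library. In spermatocytes 0 of 10 genes passed in R against UC and in R against VC-R, where 0 of 13411 and 0 of 13526 genes passed (edgeR; DESeq2 0 of 10 in both). DESeq2 called 0.0224% and 0.00739% of those genes.

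In spermatozoa-like cells 0 of 10 genes passed in R against UC, where 0.771% of 12058 genes did, and 0 of 10 in R against VC-R, where 0 of 12059 did (edgeR). DESeq2 called 0 of 10 in both, where it called 0.323% and 0% of all genes. Catsper4 had 24.1, 26.1 and 25.8 CPM in R and 20.8, 26.4 and 22.5 CPM in UC, and Lrrc52 11.6, 10.6 and 11.5 CPM and 13.7, 12.1 and 11.3 CPM. The levels of Catsper4 and Lrrc52 overlapped between R and UC and were a small share of the spermatid levels of the same libraries. Over the 10 genes the log2 fold changes of R against UC ran from -0.24 to 0.42, with a median of 0.11 (all genes 0.02). Those of R against VC-R ran from -0.18 to 0.66, with a median of 0.40 (all genes 0.008). The lowest adjusted p values were 0.056 and 0.115 in edgeR.

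Of the 8 other genes of the CatSper complex, 0 passed in T against UC spermatids. At an adjusted p under 0.05 alone 3 were higher and 3 lower, 6 of 8 where 51.8% of all genes passed that mark, with a median log2 fold change of 0.08, where the median of all genes was 0.05. The lowest was Efcab9, with 314 ± 11.96 CPM in T and 429.6 ± 48.2 CPM in UC (SD, n = 3) (log2 fold change -0.72, SE 0.09, adjusted p = 1.03e-05 in edgeR). Efcab9 was -0.43 (adjusted p = 7.8e-05) matched by bin and -0.46 (adjusted p = 0.00468) in bins 6 to 8 alone. Against VC-T it was -0.45 (adjusted p = 0.206) and -0.53 (adjusted p = 0.00048) in the same settings. In T against VC-T spermatocytes Tmem249 passed, at 13.8, 8.04 and 9.89 CPM in T and 2.76 and 2.07 CPM in VC-T (log2 fold change 2.01, SE 0.33, adjusted p = 0.00409 in edgeR), while the spermatogonia-like cells of T had 35.4, 21.2 and 5.79 CPM. VC-T 1 had 10.01 CPM, inside the T range, and with it the log2 fold change was 0.94 (adjusted p = 0.414). In the other 8 class comparisons 0 of the 8 genes passed.

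Of 20 genes for sperm ion transport and capacitation signalling, 15 to 17 passed the filter on low counts. In spermatids of T against UC, 0 rose and 2 fell, where 17.9% of all genes passed in either direction. They were Akap4, which encodes the main anchoring protein of the fibrous sheath, with 251 ± 28.8 CPM in T and 502 ± 26.1 CPM in UC (log2 fold change -1.26, SE 0.09, adjusted p = 2.81e-08 in edgeR), and Abhd2, which encodes a lipase, with 48.6 ± 2.87 CPM and 90.7 ± 7.08 CPM (log2 fold change -1.16, SE 0.10, adjusted p = 3.27e-07). The same genes passed against VC-T, at -1.30 for Abhd2 and -1.25 for Akap4, a comparison that shares the T libraries, but not with all 3 VC-T libraries (-1.02, adjusted p = 0.117, and -1.05, adjusted p = 0.113). The list median was -0.38 in T against UC. Matched by bin, Akap4 was -0.16 (adjusted p = 0.228) and Abhd2 -0.15 (adjusted p = 0.514) against UC. In bins 6 to 8 alone Akap4 was -0.53 (adjusted p = 0.000317) and Abhd2 -0.18 (adjusted p = 0.526).

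In spermatocytes of T against VC-T, Cabyr was higher (log2 fold change 1.26, SE 0.35, adjusted p = 0.0447 in edgeR) and Akap4 lower (log2 fold change -1.28, SE 0.29, adjusted p = 0.0206). Cabyr, which encodes a calcium-binding protein of the fibrous sheath, had 34.7, 14.4 and 19.6 CPM in T and 9.95 and 7.83 CPM in VC-T. With all 3 VC-T libraries neither passed (Cabyr 0.60, adjusted p = 0.545, and Akap4 -1.06, adjusted p = 0.23), and when 1 library was left out the adjusted p reached 0.18 for Cabyr and 0.109 for Akap4. In R against UC spermatids 1 of the list passed, Atp2b4, a plasma membrane calcium pump gene, at 15.1 ± 0.534 CPM in R and 5.76 ± 2.49 CPM in UC (log2 fold change 1.13, SE 0.20, adjusted p = 6.96e-05 in edgeR). Without the clusters of few UMIs it was 0.97 (adjusted p = 0.00312). In the other 6 class comparisons none of the list passed.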

How the data were processed

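Single-cell suspensions of 15 testes were sequenced with 10x Genomics 3′ chemistry. Each matrix deposited by the authors holds whole UMI counts for genes in cells, made with Cell Ranger (3.0.0 per the processing notes, whereas the matrix headers name another version) on mm10, with no correction for free RNA. Filters asked for 500 genes, 1000 UMIs and no more than 30% mitochondrial UMIs in a cell, and the 5.4% with the highest doublet scores in each library were removed. Cells were clustered (scanpy 1.11.5, Leiden resolution 1.2) and ordered without the channel genes and their partners. Counts were summed per library and class and tested over animals with edgeR 4.0.16 (quasi-likelihood, TMM, filterByExpr, Benjamini-Hochberg adjustment over all genes). DESeq2 1.42.0 was an alternative. The edgeR test was checked on simulated data for spermatids of T against UC only, with changes of 1.5 and 2.5 on the log2 scale. Of 100 changed genes of each size it recovered 91 and 100, with 4 false calls. Smaller changes and the other fits were not checked in this way. The channel genes and gene lists were chosen with earlier results of these data known. Named genes were the 10 channel genes, called genes of 2 lists (up to 4 a list and comparison, by adjusted p) and the 5 genes most like Catsper1, Catsper3 and Kcnu1. Values named for Efcab9 and the stage levels of the partner genes were chosen after they were seen. The labels do not say that replicate numbers pair libraries, and the main fits did not pair them. A replicate block was an alternative setting, and same-numbered libraries of T and UC correlated at 0.13 to 0.59 in spermatocytes.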

Additional observations from a re-analysis of the deposited data

Results flagged for a closer look

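Catsperd was flagged because its step from spermatocyte-like to spermatid-like cells differed between T and UC, with a difference of -0.98 on the log2 scale (adjusted p = 0.0248 in edgeR's quasi-likelihood test). Catsperd was also flagged because its spermatid level lay below the mean of VC-T 2 and VC-T 3 in every T library (mean log2 difference -0.25, from -0.33 to -0.13) and above the VC-R mean in every R library (mean 0.08, from 0.06 to 0.10). That second difference was not tested. The R levels of 68.3, 70.3 and 69.5 CPM lay below VC-R 1 and VC-R 3 (74.1 and 70.9 CPM) and above VC-R 2 (51.1 CPM), which lowered the VC-R mean, and VC-T 1, left out of the VC-T mean, had 49.8 CPM.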

How the results depend on the processing

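Of 163 counts of called channel genes under other settings, 147 stayed within 1.5 times the reported count. The reported count was 0 in every fit except spermatocytes of T against VC-T, so this mostly says that 0 stayed 0. In R against VC-R the main fits of spermatocytes and spermatozoa called 0 of all genes, so their counts could hardly differ. Shares of all genes called in the same setting are given in brackets. In spermatocytes of T against UC the count was 1 matched by bin (3.13%) and 2 without cluster 25 (4.09%). Against VC-T it was 1 matched by bin (3.1%), 1 with doublet scores not used (6.29%) and 0 with all 3 VC-T libraries (0.259%). When 1 T library was left out (2.84% to 6.45%), it ranged from 0 to the 3 genes Catsper1, Catsper4 and Kcnu1, which passed without T 2. In spermatids of R against UC it was 1 without TMM factors (11.5%). For the interaction it was 6 without cluster 25 (15.9%), 4 with VC-T 2 and VC-T 3 as controls (17.1%) and 1 matched by bin (1.37%). It was 1 with cells of at least 2000 UMIs (4.03%), and from 0 to 2 when 1 library was left out (0.408% to 10.1%). With the replicate block, 0 channel genes passed in spermatocytes of T against UC, where the calls over all genes went from 237 to 696. The median onset in UC at 10% of the highest bin was bin 6 for Catsper1, Catsper3 and Catsper4 and bin 1 for Catsper2, Catsperb, Catsperd, Catsperg2 and Kcnu1, and at 50% it was bin 3 for Catsper2, 8 for Catsper3, 2 for Catsperg1 and 9 for Lrrc52.

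Log2 fold changes of single genes turned sign in these cases. For T against UC in spermatids, values without TMM factors were 0.087 for Catsper1, 0.12 for Catsper4 and 0.14 for Kcnu1. Matched by bin they were 0.090 for Catsper4 and -0.030 for Catsperg1. In bins 6 to 8 alone they were -0.15 for Catsperb, 0.10 for Catsperd, -0.13 for Catsperg1 and 0.0046 for Kcnu1. For T against VC-T, matched by bin, Lrrc52 was 0.15, Catsper2 -0.0047 and Akap4 0.0051. For R against UC, Catsper2 was 0.17 without TMM factors, 0.087 with cells of at least 2000 UMIs, 0.30 matched by bin, from -0.10 to 0.0020 when 1 library was left out (0.0020 without R 1) and 0.21 without the clusters of few UMIs. Catsper4 was 0.0081 and Catsperd 0.050 without TMM factors, and Kcnu1 was -0.050 without the clusters of few UMIs. The cause was not tested in any of these cases. Over all genes, TMM set the split of higher and lower calls, at 428 and 1953 in spermatids of T against UC with it and 1172 and 1540 without it.

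The settings without cluster 25, without the clusters of few UMIs, in bins 6 to 8 and without TMM factors were chosen after seeing the data. The part of free RNA in the low spermatocyte levels was not tested. VC-T tests rest on 2 control libraries.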
